A study of Mus musculus with 6 samples.

Results

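Cytotoxic granules were followed in cDNT, mouse T cells that the study made ex vivo and that lack the CD4 and CD8 coreceptors, through the transcripts of 10 genes: 5 granzymes (Gzma, Gzmb, Gzmc, Gzmk and Gzmm), perforin (Prf1), and the granule proteins Nkg7, Srgn, Ctsw and Lamp1. The genes were chosen by name, with earlier results of these data known, as rows among the 29393 genes of the count table. All 10 were tested, out of 14916 genes tested in all. IL-10 went with more transcript of Gzmb (2.25-fold), Gzma (2.08-fold) and Nkg7 (1.86-fold), and with a smaller rise of Prf1 (1.42-fold). The other 6 genes did not pass the test. The neighbours of Gzmb in its own granzyme cluster did not pass it either.

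The cells were double negative T cells of adult C57BL/6 mice. According to the study's methods CD4+CD25- T cells of spleen and lymph node were grown with IL-2 and mature dendritic cells, and cells without CD4 and CD8 were sorted from that culture, which also held dendritic and unconverted T cells. The labels name spleen as the tissue. The W/ IL-10 cells were kept for 24 h with 50 ng/ml of IL-10, and the W/O IL-10 cells received none. The methods, but not the labels, add anti-CD3/CD28 antibodies, and whether the control cells received them is not said outright. Each group had 3 libraries, while the design text speaks of duplicates. No source says that the libraries came from separate animals or cultures, so the p-values below measure only the spread between these samples, which may be technical.

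Killer lymphocytes store granzymes, which are serine proteases, together with perforin in lysosome-like granules, and empty them towards a target cell. Perforin opens the target's membrane and lets the granzymes in, where granzyme B cleaves caspases and their substrates and granzyme A acts without them. Serglycin, the product of Srgn, is the proteoglycan core that holds granzymes in the granule, NKG7 is a granule membrane protein needed for efficient degranulation, cathepsin W (Ctsw) is a cysteine protease restricted largely to NK and cytotoxic T cells, and LAMP1 (CD107a) is the lysosomal membrane protein that reaches the cell surface when granules fuse. Granzyme B has been put forward as an effector molecule of regulatory double negative T cells.

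The promoter windows of the 3 genes with the largest rises and of Gzmc, the nearest granzyme neighbour of Gzmb, are shown because these genes lie in 3 different places in the genome while Gzmb and Gzmc lie side by side. The sequences are from RefSeq on GRCm38.p6 and run 5′ to 3′ on the gene's own strand, from 250 bases before the annotated start to 50 after it. Capitals mark matches on either strand to 3 motifs: TTCNNNGAA (the STAT type), TGTGGT or its reverse complement (RUNX) and TGANTCA (AP-1), and no match overlapped another. The windows were chr14:56262285-56262584 for Gzmb, chr13:113100932-113101231 for Gzma and chr14:56234608-56234907 for Gzmc, all on the minus strand, and chr7:43436888-43437187 on the plus strand for Nkg7.
Gzmb: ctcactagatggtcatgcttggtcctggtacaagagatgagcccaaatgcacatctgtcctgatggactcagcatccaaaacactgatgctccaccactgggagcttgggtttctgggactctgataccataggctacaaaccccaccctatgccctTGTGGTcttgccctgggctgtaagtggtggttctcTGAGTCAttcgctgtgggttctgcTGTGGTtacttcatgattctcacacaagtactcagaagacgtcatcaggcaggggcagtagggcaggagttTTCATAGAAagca
Gzma: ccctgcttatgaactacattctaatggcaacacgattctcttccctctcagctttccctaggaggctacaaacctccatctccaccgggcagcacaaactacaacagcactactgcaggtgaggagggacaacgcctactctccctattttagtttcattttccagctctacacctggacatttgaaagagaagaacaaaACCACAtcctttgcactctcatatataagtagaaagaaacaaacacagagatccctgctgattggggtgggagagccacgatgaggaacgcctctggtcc
Nkg7: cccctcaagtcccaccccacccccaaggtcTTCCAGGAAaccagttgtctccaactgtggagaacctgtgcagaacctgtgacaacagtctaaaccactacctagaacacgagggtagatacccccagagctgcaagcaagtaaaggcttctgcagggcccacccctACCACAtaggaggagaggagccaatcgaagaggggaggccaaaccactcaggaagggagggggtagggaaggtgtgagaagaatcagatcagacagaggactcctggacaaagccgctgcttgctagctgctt
Gzmc: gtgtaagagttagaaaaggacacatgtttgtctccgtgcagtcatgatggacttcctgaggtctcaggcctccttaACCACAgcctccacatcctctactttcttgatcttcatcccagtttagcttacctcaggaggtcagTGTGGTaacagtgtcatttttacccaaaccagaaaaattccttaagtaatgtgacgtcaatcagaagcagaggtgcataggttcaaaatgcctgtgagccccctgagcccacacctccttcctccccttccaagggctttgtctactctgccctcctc

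Counted from the annotated start (the first transcribed base is 1), the Gzmb window held the STAT-type letters from 38 to 46, the AP-1 letters from -58 to -52 and the RUNX letters from -93 to -88 and from -34 to -29. Nkg7 held the STAT-type letters from -220 to -212 and the RUNX letters from -83 to -78. Gzma held the RUNX letters only, from -50 to -45, and Gzmc held them at -174 to -169 and at -108 to -103. Of the 10 granule genes, 9 had a window and together they had 11, since Gzmm and Srgn have more than 1 annotated start. The STAT-type letters were in 3 of the 11 windows (Gzmb, Nkg7 and Gzmm) against 8.3% of all 32851 mouse windows. The RUNX letters were in 8 of the 11 against 16.8% of all windows, and the AP-1 letters in 1 of 11 against 7.81%. These are matches of letters, not evidence of binding, and any link to the response was not tested. Of the genes that passed, Gzmb and Nkg7 held the STAT-type letters while Gzma and Prf1 did not. Gzmm held them and did not pass, at 54 to 79 counts in a library.

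The counts on genes summed to 22953260 to 23967088 in the W/O IL-10 libraries and to 21619420 to 22958891 in the W/ IL-10 libraries. Levels are given as CPM, the counts of a gene per 1000000 counts of the TMM-scaled library total, and 3 counts, taken as the least the depth can show, correspond to 0.122 to 0.146 CPM (counting error only). Of all tested genes, 217 were called, which means an adjusted p under 0.05 in edgeR's quasi-likelihood test and a fold change of at least 1.5. Of the granule genes, 4 of 10 passed at an adjusted p under 0.05 at any fold, all higher W/ IL-10. That compares with 2.19% of all tested genes that passed in either direction and 1.21% that passed higher. The 3 called at 1.5-fold or more (Gzmb, Gzma and Nkg7) compare with 1.45% of all tested genes called in either direction and 0.778% called higher. In 7 of 10 granule genes the 2 groups of libraries did not overlap, 6 higher and 1 lower W/ IL-10, beside 22.6% of all tested genes without overlap in either direction and 11.3% without overlap and higher. The median log2 fold change was 0.29 over the granule genes and 0.006 over all tested genes.

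**Figure D1:**
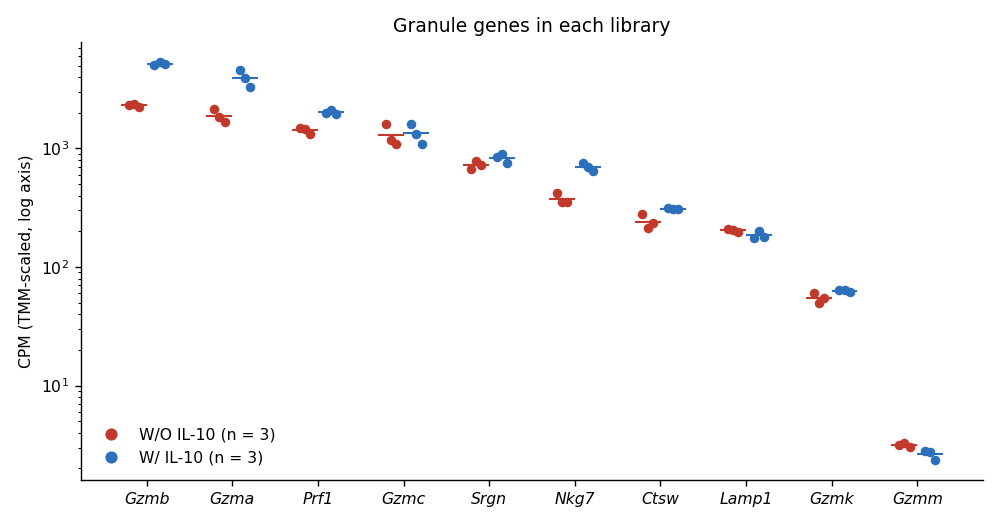
CPM (TMM-scaled, log axis) of the 10 granule genes in each of the 3 W/O IL-10 (red) and 3 W/ IL-10 (blue) libraries, with the group mean as a line, in order of the mean. The groups are apart for Gzmb, Gzma, Prf1, Nkg7, Ctsw and Gzmk (higher W/ IL-10) and for Gzmm (lower), and overlap for Gzmc, Srgn and Lamp1.

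Gzmb (ENSMUSG00000015437; GRCm38 chromosome 14, 56258838 to 56262260, minus strand) was at 2312, 2365 and 2239 CPM in the 3 control libraries and at 5106, 5342 and 5122 CPM in the 3 libraries W/ IL-10, listed by replicate number here and below. The libraries of a group lay close together and the groups were far apart. The log2 fold change was 1.17 (SE 0.08; edgeR, adjusted p = 0.000527). Among all tested genes Gzmb ranked 6 by mean CPM.

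Gzma (ENSMUSG00000023132; chromosome 13, 113093825 to 113100981, minus strand) was at 2163, 1841 and 1671 CPM W/O IL-10 and at 4630, 3916 and 3267 CPM W/ IL-10. The lowest library W/ IL-10 exceeded the highest control, although Gzma varied more within a group than Gzmb did, with SDs of 249.8 and 681.8 CPM against 63.4 and 131.9 CPM. Its log2 fold change was 1.06 (SE 0.15; edgeR, adjusted p = 0.0116). Without W/O IL-10 replicate 2, W/ IL-10 replicate 1 or W/ IL-10 replicate 2 the fold change stayed between 0.92 and 1.06 on the log2 scale and the edgeR adjusted p came to 0.0519, 0.0524 and 0.0537.

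Nkg7 (ENSMUSG00000004612; chromosome 7, 43437073 to 43438249, plus strand) was at 422, 356 and 354 CPM W/O IL-10 and at 757, 700.4 and 651 CPM W/ IL-10. The lowest W/ IL-10 library stood well above the highest control. The log2 fold change was 0.90 (SE 0.10; edgeR, adjusted p = 0.00467).

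Prf1 (ENSMUSG00000037202; chromosome 10, 61297833 to 61304680, plus strand) was at 1495, 1465 and 1313 CPM W/O IL-10 and at 1990, 2111 and 1945 CPM W/ IL-10. The groups were apart, by a smaller fold than those of Gzmb or Nkg7. The log2 fold change was 0.50 (SE 0.09; edgeR, adjusted p = 0.0291), which is below a fold of 1.5. That pass was lost when any 1 library other than W/O IL-10 replicate 1 was left out, with edgeR adjusted p between 0.101 and 0.130 and log2 fold changes between 0.43 and 0.53.

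Ctsw (ENSMUSG00000024910; chromosome 19, 5465043 to 5468507, minus strand) was at 278.5, 212 and 234 CPM W/O IL-10 and at 314, 308 and 310.5 CPM W/ IL-10. The groups did not overlap, but W/O IL-10 replicate 1 was nearer to the treated libraries than to the other controls, and the log2 fold change of 0.37 (SE 0.10) did not pass (edgeR, adjusted p = 0.126). Without that library it was 0.47 and passed (edgeR, adjusted p = 0.00626), and it also passed in DESeq2, without the filter on low counts and once GC content and length were corrected for.

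Srgn (ENSMUSG00000020077; chromosome 10, 62493833 to 62527451, minus strand) was at 665, 776.5 and 724 CPM W/O IL-10 and at 849.8, 906 and 761 CPM W/ IL-10. The groups overlapped, since W/ IL-10 replicate 3 was below W/O IL-10 replicate 2, and the log2 fold change was 0.22 (SE 0.10; edgeR, adjusted p = 0.356). Srgn, the granule scaffold, thus did not pass in libraries where its cargo Gzma and Gzmb were over 2-fold higher.

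Gzmc (ENSMUSG00000079186; chromosome 14, 56231441 to 56234656, minus strand), one of the granzymes of the cluster around Gzmb, was at 1604, 1189 and 1089 CPM W/O IL-10 and at 1609, 1327 and 1099 CPM W/ IL-10. The ranges almost coincided, and the log2 fold change was 0.06 (SE 0.17; edgeR, adjusted p = 0.916), with a sign that turned when some libraries were left out. Gzmk (ENSMUSG00000042385; chromosome 13, 113171608 to 113225908, minus strand), a tryptase-like granzyme next to Gzma, was at 60.6, 49.7 and 55.0 CPM W/O IL-10 and at 63.7, 63.8 and 61.0 CPM W/ IL-10. All W/ IL-10 libraries were slightly above the controls, without passing the test (log2 fold change 0.19, SE 0.09; edgeR, adjusted p = 0.360).

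Gzmm (ENSMUSG00000054206; chromosome 10, 79689020 to 79695261, plus strand), a granzyme best known from NK cells, was the lowest of the granule genes, with 77, 79 and 70 counts W/O IL-10 against 58, 62 and 54 counts W/ IL-10. In CPM these were 3.15, 3.27 and 3.02 against 2.82, 2.75 and 2.37. The groups did not overlap, but at this depth the log2 fold change of -0.25 (SE 0.20) did not pass (edgeR, adjusted p = 0.606). Lamp1 (ENSMUSG00000031447; chromosome 8, 13159161 to 13175338, plus strand) was at 211, 206 and 198 CPM W/O IL-10 and at 177, 199.9 and 177.5 CPM W/ IL-10. W/ IL-10 replicate 2 lay within the controls, and the log2 fold change was -0.15 (SE 0.08; edgeR, adjusted p = 0.419). Of the exon bases of Lamp1, 9.3% overlap Grtp1 on the opposite strand, and no source used here states whether reads were counted by strand.

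**Figure D2:**
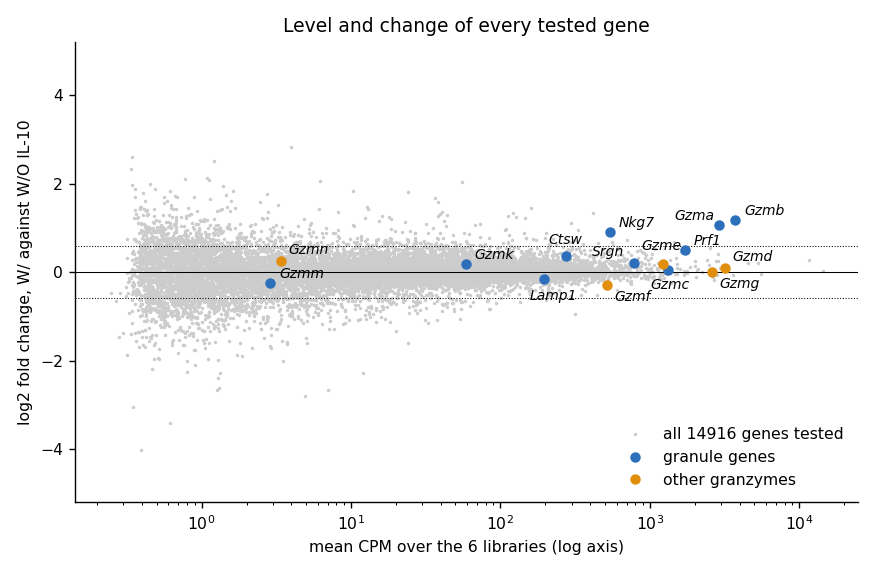
Mean CPM over the 6 libraries (log axis) against the log2 fold change for all 14916 genes tested (grey), the 10 granule genes (blue) and the 5 other granzymes (orange), with dotted lines at a fold of 1.5 either way. Gzmb, Gzma and Nkg7 lie above the upper line at high expression, and the other granzymes lie between the lines.

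Levels of different genes are compared as CPM per kilobase of exon (CPM per kb). In the W/O IL-10 libraries the order was Gzma at 1880 ± 248.3 CPM per kb (SD, n = 3), Gzmb at 1605 ± 44.1 and Gzmc at 1447 ± 305.9. The levels of Gzma and Gzmb were only narrowly apart, with 1661 as the lowest of Gzma and 1647 as the highest of Gzmb. The levels of Gzmb and Gzmc overlapped between libraries. After them came Prf1 at 551 ± 37.7, Nkg7 at 413 ± 42.7, Srgn at 329 ± 25.4, Ctsw at 128 ± 18.1, Lamp1 at 76.7 ± 2.47, Gzmk at 39.7 ± 3.90 and Gzmm at 2.14 ± 0.086 CPM per kb. None of these lower neighbours overlapped.

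W/ IL-10 the order of mean levels was the same, with 2 differences in spacing. Gzma at 3914 ± 677.7 and Gzmb at 3614 ± 91.9 CPM per kb (SD, n = 3) overlapped each other and stood clear of Gzmc at 1505 ± 285.3. Nkg7 at 769 ± 58.2 CPM per kb reached the level of Prf1 at 780.1 ± 33.3 and overlapped it. Below them stood Srgn at 382 ± 33.3, Ctsw at 165 ± 1.64, Lamp1 at 69.1 ± 4.88, Gzmk at 45.2 ± 1.12 and Gzmm at 1.80 ± 0.166 CPM per kb, again without overlap of neighbours.

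The ratio of a pair of genes within a library does not depend on how libraries are scaled. Gzma to Gzmb, per kb, was 1.07 to 1.33 W/O IL-10 against 0.910 to 1.29 W/ IL-10, so the ranges overlapped (difference of the mean log2 ratio -0.12; two-sided exact permutation test, p = 0.4, adjusted p = 0.4). Gzmc to Gzmb was 0.781 to 1.11 W/O IL-10 against 0.345 to 0.506 W/ IL-10, a difference of -1.11 on the log2 scale. Prf1 to Gzmb went from 0.326 to 0.359 W/O IL-10 to 0.211 to 0.220 W/ IL-10 (-0.67), and Srgn to Gzmb from 0.188 to 0.215 W/O IL-10 to 0.0972 to 0.111 W/ IL-10 (-0.95). Each library with IL-10 thus held less perforin, serglycin and granzyme C transcript for each granzyme B transcript than any control. For each of these 3 ratios the exact permutation p was 0.1, the smallest that 3 libraries against 3 can give (0.1111 adjusted over 10 quantities).

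The other 5 quantities in that family were chosen after the values were seen. They include Nkg7 to Gzmb, 0.236 to 0.287 W/O IL-10 against 0.1997 to 0.233 W/ IL-10 (log2 difference -0.27), Gzmk to Gzma, 0.0196 to 0.0239 W/O IL-10 against 0.00996 to 0.0135 W/ IL-10 (-0.86), and Gzmd to Gzmb, 1.85 to 2.32 W/O IL-10 against 0.845 to 1.05 W/ IL-10 (-1.08). In all 3 the groups were apart, at the smallest p the exact permutation test allows (p = 0.1). For Nkg7 to Gzmb the gap between the groups was narrow, since the lowest control and the highest treated library almost met.

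The 10 granule genes took 0.870% ± 0.0721 of all counts W/O IL-10 (SD, n = 3; 0.941, 0.873 and 0.797% in the 3 libraries) and 1.42% ± 0.0803 W/ IL-10 (1.48, 1.46 and 1.33%). The groups did not overlap (exact permutation test, p = 0.1, the smallest possible; adjusted 0.1111). The 10 granzyme genes of the table, which add Gzmd, Gzme, Gzmf, Gzmg and Gzmn to the 5 above, took 1.33% ± 0.187 of all counts W/O IL-10 against 1.78% ± 0.156 W/ IL-10. Within the granzyme counts, Gzma and Gzmb made up 29.8, 33.8 and 33.9% W/O IL-10 against 48.7, 49.8 and 52.0% W/ IL-10. The share of Gzmd went from 23.9% ± 0.168 to 18.1% ± 0.247 and that of Gzmg from 20.03% ± 1.47 to 14.3% ± 0.725 (SD, n = 3), although their own CPM did not pass a test of change.

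**Figure D3:**
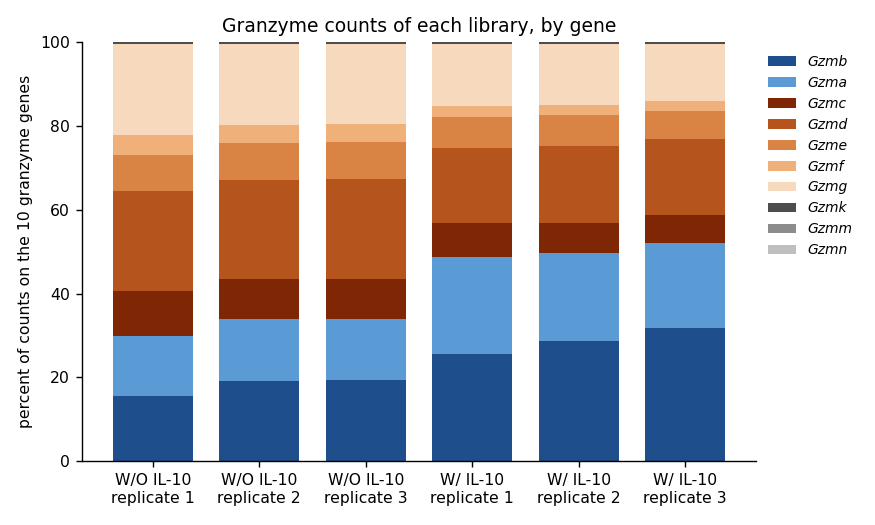
Percent of the counts on the 10 granzyme genes that fell on each gene (vertical axis, 0 to 100), 1 bar for each library. Gzmb and Gzma (blue) together fill 29.8 to 33.9% of the W/O IL-10 bars and 48.7 to 52.0% of the W/ IL-10 bars, while Gzmk, Gzmm and Gzmn are too thin to see.

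Gzmb lies at the high-coordinate end of 7 listed granzyme genes on chromosome 14, all on the minus strand. Relative to the start of Gzmb, Gzmc starts at -27.6 kb, Gzmf at -50.8 kb, Gzmn at -87.7 kb, Gzmg at -102.7 kb, Gzmd at -129.7 kb and Gzme at -141.6 kb. Gzmn, at 3.11 and 3.71 CPM, was the one weakly expressed gene among them. Gzmd, at 3229 CPM per kb W/O IL-10 against 3433 W/ IL-10, stood above every other granzyme of the table W/O IL-10. Its CPM was 3607, 2956 and 2775 W/O IL-10 against 3596, 3428 and 2905 W/ IL-10, with overlapping groups (log2 fold change 0.09, SE 0.13; edgeR, adjusted p = 0.794). None of the 5 granzymes outside the 10 granule genes passed (0 of 5; log2 fold changes -0.29 to 0.25, median 0.09), and in none were the groups apart.

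The near-identical sequences of the cluster limit those values. Of the 50-base stretches of the transcripts, 19.4 to 21.9% in Gzmd, Gzme, Gzmf and Gzmg occur in another gene, 5.6% in Gzmn and 4.1% in Gzmc, and none in Gzmb, so reads of the first 4 could be split or dropped in counting and their levels are uncertain. Promoter windows were aligned end to end with gaps allowed, and identity is the share of the 300 bases that matched. By that measure Gzmb was identical to its 6 neighbours at 49.0 to 54.3%, and Gzmc to Gzmd, Gzme, Gzmf and Gzmg at 79.7 to 84.7%. The identity that unrelated windows reach in this way was not computed. Gzmc, Gzmd, Gzme, Gzmf and Gzmg each held the RUNX letters at 2 places and the STAT-type letters nowhere in the window. The window of Gzmn was identical to those of the other 6 genes at 52.3 to 56.3%. Gzmn had 67 to 90 counts in a library and did not pass (log2 fold change 0.25, SE 0.20). A link between window identity and response was not tested.

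**Figure D4:**
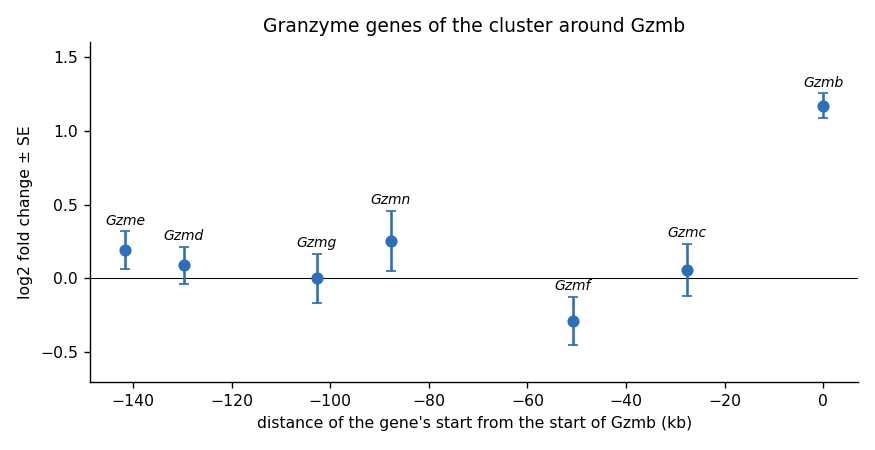
Log2 fold change W/ against W/O IL-10 (points, bars are ± SE from edgeR) of the 7 granzyme genes of the chromosome 14 cluster, by the distance of each gene's start from the start of Gzmb in kb. Gzmb stands at 1.17 and the 6 neighbours between -0.29 and 0.25.

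Of the 8 genes that inhibit granzymes and cathepsins, 4 passed, all higher, beside 1.21% of all tested genes that passed higher (median log2 fold change 0.33, against 0.006 over all tested genes). Serpinb9, the intracellular inhibitor of granzyme B, was at 373, 485 and 488 CPM W/O IL-10 against 755, 634 and 663 W/ IL-10 (log2 fold change 0.61, SE 0.12; edgeR, adjusted p = 0.0444). Serpinb9b, a relative that inhibits granzyme M, was at 106, 95.5 and 100.7 CPM W/O IL-10 against 199, 171 and 190.0 W/ IL-10 (log2 fold change 0.89, SE 0.08; edgeR, adjusted p = 0.00188). The groups of libraries did not overlap for either gene.

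Serpinb6b, an inhibitor of granzyme A, was at 228, 299.5 and 313.5 CPM W/O IL-10 against 452, 431 and 428.5 W/ IL-10 (log2 fold change 0.64, SE 0.12; edgeR, adjusted p = 0.0337). Serpinb1a, known as an inhibitor of neutrophil serine proteases, was at 101, 81.6 and 82.3 CPM W/O IL-10 against 133, 130.0 and 127 W/ IL-10 (log2 fold change 0.56, SE 0.09; edgeR, adjusted p = 0.0247). The log2 fold changes of the inhibitors of granzymes A and B were smaller than those of Gzma and Gzmb, a difference that was not tested. Serpinb9b passed in all 12 alternatives. Serpinb9, Serpinb6b and Serpinb1a failed without W/O IL-10 replicate 2 (edgeR, adjusted p = 0.109, 0.102 and 0.108) and without W/ IL-10 replicate 1 (0.163, 0.138 and 0.1075), 2 (0.0979, 0.106 and 0.0863) or 3 (0.184, 0.161 and 0.1295). Serpinb9 and Serpinb1a also failed without W/O IL-10 replicate 3 (0.0693 and 0.0754), while the log2 fold changes of these 3 genes stayed at 0.46 or above.

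Of the 7 lysosomal proteases listed as processing enzymes, 1 passed, beside 1.21% of all tested genes that passed higher. Ctsc, the dipeptidyl peptidase that activates granzymes by removing their propeptide, was at 138, 134 and 130.0 CPM W/O IL-10 against 173, 166 and 174 W/ IL-10 (log2 fold change 0.35, SE 0.07; edgeR, adjusted p = 0.0390). The groups were apart, but it passed in 3 of 12 alternatives only. It failed when any library other than W/O IL-10 replicate 1 was left out (edgeR, adjusted p from 0.0863 to 0.188), and the correction for GC content and length brought the log2 fold change to 0.19 (edgeR, adjusted p = 0.441). Of the 10 genes of lysosomal membrane and sorting, 1 passed, beside the same 1.21% of all tested genes. That gene is Gnptab, which makes the mannose 6-phosphate tag that sends granzymes A and B to granules. It was at 159, 178 and 166 CPM W/O IL-10 against 263, 242 and 272 W/ IL-10 (log2 fold change 0.63, SE 0.08; edgeR, adjusted p = 0.00846), and its groups did not overlap. It passed in 10 of 12 alternatives, and failed without W/ IL-10 replicate 1 (edgeR, adjusted p = 0.0524) or 3 (0.0704).

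None of the 15 tested genes of granule traffic and fusion passed (edgeR; median log2 fold change -0.003, range -0.17 to 0.35). By sign 7 of the 15 were higher. The groups were apart in 4 genes that were higher and in 1 that was lower W/ IL-10. Of all tested genes, 11.3% were apart and higher and 22.6% apart in either direction. Rab7, a GTPase of late endosomes with the highest level per kb of that list, was at 215, 206 and 203 CPM W/O IL-10 against 200.1, 215 and 204 W/ IL-10, with a log2 fold change of -0.01 (SE 0.07; edgeR, adjusted p = 0.954).

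Markers of the cells that could be in the sort were checked beside these results. T cell markers were present, with summed levels of 1453 to 1700 CPM W/O IL-10 against 1884 to 2085 W/ IL-10, and 0 of 6 passed. All 6 were higher W/ IL-10 by sign, beside 7641 of all 14916 tested genes. In 3 of them the groups were apart, beside 11.3% of all tested genes apart and higher. Their median log2 fold change was 0.31, beside 0.29 for the granule genes, and a link between the 2 was not tested. Cd4 had 8 to 38 counts in a library, but Cd8a had 2316 to 3786 counts and passed, higher W/ IL-10 (edgeR, adjusted p = 0.0369), as did Cd8b1, so transcripts of the CD8 chains were present in cells labelled double negative. Cd8a failed without W/O IL-10 replicate 2 or W/ IL-10 replicate 1 or 3 (edgeR, adjusted p = 0.141, 0.149 and 0.191), and Cd8b1 without those or W/ IL-10 replicate 2 (0.0925 to 0.178). A fall in the number of cells of a type and a fall in RNA per cell cannot be told apart in such bulk samples.

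Mast cells and basophils matter here because they also hold granule proteases and serglycin. All 6 of their listed markers were detected and 0 of 6 passed, with summed levels of 1230, 1283 and 962 CPM W/O IL-10 against 938, 994 and 725 W/ IL-10. Cpa3, their carboxypeptidase, was at 669, 809 and 577 CPM W/O IL-10 and at 529, 598 and 420.3 W/ IL-10, and the median log2 fold change of the list was -0.41. The summed levels overlapped between the groups, with the lowest library W/ IL-10. In 2 of the 6 markers, Cma1 and Ms4a2, the groups were apart and lower W/ IL-10 (log2 fold changes -0.42 and -0.56). Of all tested genes, 22.6% were apart in either direction. By sign 1 of the 6, Mcpt4, was higher (0.22). What part these cells have in the granule results was not tested.

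Of the 5 NK cell markers, 2 passed as lower W/ IL-10, beside 146 of all 14916 tested genes that passed lower. The others did not pass. Of those others, Klrb1c was lower by sign (log2 fold change -0.27), while Klri2 (0.17) and Klra8 (0.38) were higher by sign. The groups overlapped for all of these. Ncr1 was at 8.05, 5.46 and 6.07 CPM in the controls against 3.79, 2.53 and 2.54 W/ IL-10 (edgeR, adjusted p = 0.0460). Eomes was at 498, 515 and 539 CPM in the controls against 353, 383.5 and 357 W/ IL-10 (edgeR, adjusted p = 0.0176). Without 1 library other than W/O IL-10 replicate 1, the edgeR adjusted p of Ncr1 came to 0.0795 to 0.220, and that of Eomes was 0.0575 to 0.123 without W/O IL-10 replicate 2 or 3 or W/ IL-10 replicate 1 or 3. Eomes is a transcription factor that cytotoxic T cells use as well. The summed levels were 29.4 to 33.0 CPM W/O IL-10 against 50.1 to 61.0 W/ IL-10 for the dendritic cell markers, 45.2 to 117 and 45.8 to 79.1 CPM for B cells, 5.04 to 11.5 and 4.75 to 5.25 CPM for macrophages, and 2.97 to 6.82 and 4.21 to 6.12 CPM for neutrophils. Among the dendritic markers Itgax, an integrin chain that activated T cells also carry, was at 18.8, 19.5 and 22.7 CPM in the controls against 40.4, 39.9 and 49.4 W/ IL-10, was called higher (log2 fold change 1.09; edgeR, adjusted p = 0.00383) and passed in all 12 alternatives. Xcr1 was at 3.47, 4.10 and 4.09 CPM in the controls against 6.56, 4.66 and 6.44 W/ IL-10, with groups apart, and did not pass. Zbtb46, at 6.95, 6.99 and 6.16 CPM in the controls against 4.66, 5.33 and 4.82 W/ IL-10, was apart in the other direction and did not pass either. Flt3 and Siglech, also on that list, had at most 7 counts and 1 count in a library. The part of these cells in the granule results was not tested.

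The libraries also differed by base composition. Over all tested genes the median log2 fold change went from 0.38 for the 140 genes with up to 36% GC to -0.13 for the 542 genes over 60% GC. The granule genes ranged from 42.8% GC (Srgn) to 56.2% (Gzmm), with 46.2% in Gzmb, 44.1% in Gzma, 53.1% in Nkg7 and 53.6% in Prf1. After correction for GC content and length the log2 fold changes were 1.13 for Gzmb, 0.96 for Gzma, 0.95 for Nkg7 and 0.57 for Prf1, all with an edgeR adjusted p of 0.00336 or less, and that of Srgn was 0.11.

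**Figure D5:**
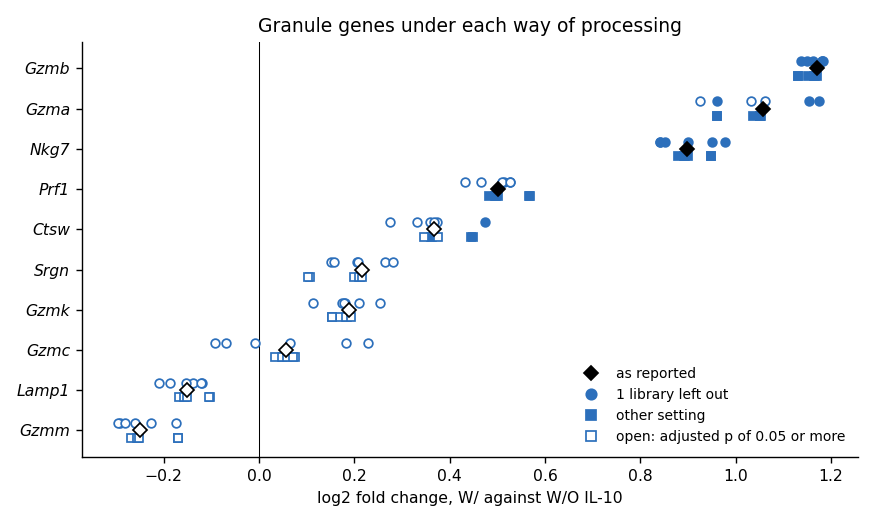
Log2 fold change of each granule gene (horizontal axis) as reported (diamonds), with 1 library left out (circles) and under the other ways of processing (squares), where filled symbols have an adjusted p under 0.05. The values of Gzmb and Nkg7 are filled throughout, those of Gzma and Prf1 in 9 and 7 of 12 alternatives, and only Gzmc crosses 0.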

How the data were processed

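The authors deposited 1 table of raw whole-number counts per gene, not normalized, for 29393 Ensembl genes in 6 libraries of mouse cDNT. The submitters' processing notes name HISAT2, HTSeq and GRCm38, without versions, whereas the study's methods name TopHat, Cufflinks and UCSC annotation; neither states a strand setting. The labels name a TruSeq kit and the methods a NEBNext kit. Reads shared by near-identical genes may have been dropped or split by that counting.

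TMM scaling (factors from 0.953 to 1.03) and the quasi-likelihood test were run in edgeR 4.0.16 under R 4.3.3. The 14916 genes that reached 10 counts in 3 or more libraries were tested by group alone, with Benjamini-Hochberg adjustment over all of them. Genes with an adjusted p under 0.05 passed, and those also at a fold of at least 1.5 were called. Fold changes were not shrunk, and an SE is the log2 fold change over the square root of F. Coordinates, exon lengths and GC content come from GENCODE M21 (GRCm38), in which 29332 identifiers were found, and promoter windows from RefSeq. No 2 libraries held identical values. Single quantities were compared by two-sided exact permutation tests (20 splits, scipy 1.17.1).

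The alternatives were DESeq2 1.42.0, upper-quartile scaling, no filter, the replicate number as a block, a correction for GC content and length (splines with 5 degrees of freedom for each library, 99.9% of tested genes) with and without that block, and each library left out. In counts simulated for this comparison with 200 changed genes, edgeR recovered 44% of those changed 1.5-fold (14645 genes) and 66% of those changed 2-fold (14642 genes), with 6.38% and 10.8% false calls. A GC trend in 1 group was then added to the simulation, its size not fitted to these data. The false share of passing genes rose to 31.9% (14645 genes) and 28.9% (14669 genes). With the GC and length correction it was 7.23% and 8.11%. The granule genes, gene lists and motifs were chosen with earlier results of these data known. All granule genes are named, as are listed pathway genes that passed and, in a list where none did, the gene with the highest level per kb. Marker genes and 5 of the 10 ratios and shares were named after their values were seen. Of the 97 listed symbols, 95 were found in the table. Figures were drawn with matplotlib 3.10.9 in Python 3.11.15.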

Additional observations from a re-analysis of the deposited data

How the results depend on the processing

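Gzmb and Nkg7 passed in all 12 alternatives, Gzma in 9 and Prf1 in 7, and Ctsw, which did not pass as reported, passed in 5. Gzmk, Srgn, Lamp1 and Gzmm passed in none and kept their direction in all 12. Gzmc passed in none, and its log2 fold change ranged from -0.093 to 0.229 when 1 library was left out, with a turned sign without W/O IL-10 replicate 2, without W/O IL-10 replicate 3 and without W/ IL-10 replicate 1 (-0.0089, -0.0688 and -0.093). Leaving out 1 library gave 2 to 5 granule genes with an adjusted p under 0.05, 2 to 3 called, and 1 to 3 called pathway genes, against 4, 3 and 4 as reported. In the same fits 35 to 525 of all 14622 to 14735 tested genes passed and 35 to 254 were called. As reported, 327 of 14916 passed and 217 were called, so the number of passing genes shifted over all genes too. The lowest count of 2 granule genes came without W/O IL-10 replicate 2, W/ IL-10 replicate 1 or W/ IL-10 replicate 2, and the count of 1 pathway gene without W/ IL-10 replicate 1 or 3; it was 2 without W/O IL-10 replicate 1 or 2 or W/ IL-10 replicate 2.

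Over all genes, 217 were called as reported, 359 by DESeq2, 639 without the filter, 333 with the GC and length correction and the replicate block together, and 35 to 254 with 1 library left out, with 75, 57, 98 and 35 without W/O IL-10 replicate 2 and W/ IL-10 replicates 1, 2 and 3. With the replicate block alone 283 of all 14916 tested genes passed and 196 were called. Of the granule genes 4 passed and 3 were called, while Serpinb9 and Ctsc no longer passed (edgeR, adjusted p = 0.0727 and 0.0697). Same-numbered libraries deviated together with correlations of 0.0524, -0.0573 and 0.114, against a mean of -0.0175 for different numbers, so the numbers were not taken as pairs. The difference between the groups in the log2 ratio of Gzma to Gzmb (W/ minus W/O IL-10) ranged from -0.26 to -0.001 with 1 library left out, and the other ratios and shares kept their direction. The cause of these differences was not tested. Gzmm had 54 to 79 counts in a library, which limits the precision of its fold change.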
